A study of Mus musculus with 2 samples.

Results

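The Wnt pathway genes examined here are 55 genes chosen by name as ligands, receptors, antagonists and intracellular members, out of 21938 protein-coding genes of GENCODE release M21 on chromosomes 1 to 19, X and Y. All 55 were matched by symbol. They comprise 18 Wnt ligand genes, the 4 R-spondin genes, 15 receptor genes (10 frizzled, 2 LRP and 3 LGR genes), 7 genes of secreted antagonists and 11 genes of intracellular members. The rule for membership uses gene names and no measured value, although earlier results of these data were known when it was written. Chromatin opened to the nuclease DNase I was mapped in midbrain from mice of the strain B6NCrl on postnatal day 0, described as healthy and pooled from both sexes, with no treatment or genotype other than the strain in the labels. There was 1 group of 2 biological replicates, and both trace to a single pooled donor entry, so the spread between them may be partly technical. No second condition was assayed, so no test between conditions exists, and each count is given beside the same count over all protein-coding genes. A whole tissue piece mixes neurons, glia, vessels and meninges, and open chromatin in a few cells cannot be told apart from weakly open chromatin in many.

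Wnt ligands are secreted glycoproteins that bind frizzled receptors and, in the canonical branch, the co-receptors Lrp5 and Lrp6. The bound receptors recruit dishevelled proteins and halt a destruction complex built on Axin and Apc, so that beta-catenin (Ctnnb1) accumulates and acts in the nucleus with the TCF/LEF factors. R-spondins raise the response through the receptors Lgr4, Lgr5 and Lgr6, whereas Dickkopf proteins bind the LRP co-receptors and secreted frizzled-related proteins bind the ligands. In the midbrain the pathway is known for its part in patterning and in the birth of dopaminergic neurons, and in the brain at large for vessel growth, axon guidance and synapse formation.

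Each library had its own list of 150 bp peaks, with 228203 usable peaks in replicate 1 and 122593 in replicate 2. A peak carries the authors' signal, a whole number of unstated definition. It ran up to 149 in replicate 1 and 125 in replicate 2 with medians of 44 and 18, so values are compared within a library or as percentile ranks in its list. A replicated region is a stretch of overlapping or touching peaks with a peak of each library, and a promoter peak is one that reaches within 500 bp of a start site annotated for the gene. Read depth is unknown. Of the 5 neuronal markers checked all had a replicated promoter peak, as did 5 of 5 genes of neural progenitors and glia and 3 of 5 of midbrain and isthmus (En1, En2 and Otx2, but not Pax7 or Lmx1b). The counts were 1 of 5 for endothelium (Kdr), 1 of 5 for meninges and fibroblasts (Col1a1), 3 of 5 for choroid plexus, one of which is Otx2 again, 0 of 5 for microglia and 0 of 5 for liver. The share of all protein-coding genes was 61.0%. With replicate 1 alone these 5 counts were 2, 4, 4, 2 and 0, beside 68.9%. All microglia and liver genes checked lie in the lower 5 CpG deciles (defined below), where 30.0% of all genes were open, so their counts of 0 say little about cell content. Most of the endothelial and meningeal genes lie there too, and their counts are limited in the same way. The neuronal markers Rbfox3, Stmn2, Myt1l and Snap25 lie in the same deciles and were open.

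The sequences that bear on the TCF/LEF factors, the end point of the pathway, are shown first. The words searched were CTTTGAT and CTTTGAA on both strands, where they read ATCAAAG and TTCAAAG on the other strand, and they are in capitals. Bases are from the RefSeq copy of mm10, plus strand, 5′ to 3′, and the stretches inside annotated untranslated regions are left out. The Axin2 promoter is shown because Axin2 is a known target of the pathway as well as a member. The upstream Lef1 region and the Wnt4 region are the strongest of their class with a word away from promoters. The Tcf7, Dkk1 and inner Lef1 regions, near start sites, and the Wnt10a intron were picked because they hold a word. Lef1, Tcf7 and Dkk1 are known targets too, but their regions were chosen by word. Their words therefore do not show that targets hold words more often. Regions with a word at Lrp6, Wnt5b and other members named below are not printed. Ctnnb1 has the highest-ranked replicated promoter region among the members. The entries for Tcf7, Dkk1, Wnt10a and the inner Lef1 region were chosen after their values were seen.
Axin2 start site, upstream part, chr11:108920276-108920348: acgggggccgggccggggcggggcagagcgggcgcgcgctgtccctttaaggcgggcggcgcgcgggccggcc
Axin2 downstream start site, chr11:108920716-108920799: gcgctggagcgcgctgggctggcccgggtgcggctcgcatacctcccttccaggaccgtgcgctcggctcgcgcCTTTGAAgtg
Tcf7 promoter, chr11:52283356-52283505: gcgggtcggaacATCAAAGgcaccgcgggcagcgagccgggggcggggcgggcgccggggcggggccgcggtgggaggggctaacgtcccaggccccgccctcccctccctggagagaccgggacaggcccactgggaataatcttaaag
Lef1 upstream, chr3:131105996-131106185: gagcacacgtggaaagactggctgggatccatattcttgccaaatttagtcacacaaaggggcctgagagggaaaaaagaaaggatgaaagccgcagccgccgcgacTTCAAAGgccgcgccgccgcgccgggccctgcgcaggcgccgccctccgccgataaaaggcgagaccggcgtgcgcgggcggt
Lef1 inner region, chr3:131137196-131137345: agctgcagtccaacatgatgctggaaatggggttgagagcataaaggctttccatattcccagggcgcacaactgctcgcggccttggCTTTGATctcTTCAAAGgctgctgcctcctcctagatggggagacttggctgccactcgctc
Dkk1 promoter, chr19:30549896-30550185: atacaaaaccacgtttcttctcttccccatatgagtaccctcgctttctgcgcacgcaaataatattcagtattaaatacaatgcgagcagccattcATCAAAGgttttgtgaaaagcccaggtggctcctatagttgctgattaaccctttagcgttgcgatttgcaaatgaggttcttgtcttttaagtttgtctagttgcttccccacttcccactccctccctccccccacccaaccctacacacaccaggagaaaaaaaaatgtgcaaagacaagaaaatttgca
Wnt4 downstream, chr4:137308536-137308705: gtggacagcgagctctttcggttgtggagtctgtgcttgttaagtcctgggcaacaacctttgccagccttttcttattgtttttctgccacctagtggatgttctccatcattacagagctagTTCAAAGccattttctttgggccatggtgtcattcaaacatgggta
Wnt10a intron, chr1:74797556-74797705: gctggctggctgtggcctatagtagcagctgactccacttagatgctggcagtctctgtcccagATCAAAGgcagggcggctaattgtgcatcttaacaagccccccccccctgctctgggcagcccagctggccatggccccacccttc
Ctnnb1 promoter, upstream part, chr9:120933296-120933399: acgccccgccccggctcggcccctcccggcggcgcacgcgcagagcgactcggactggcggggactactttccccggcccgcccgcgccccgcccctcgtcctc

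Across the pathway, the intracellular members and the frizzled receptors were open at their promoters almost throughout in both libraries, and the ligand count depended on the library. All 10 frizzled and 10 of the 11 intracellular genes have CpG-rich 5′ ends (upper 5 deciles, below), and 92.1% of all such genes were open. A replicated promoter peak was found at 37 of 55 members, 67.3% (95% Wilson interval 54.1 to 78.2, counting error only), beside 61.0% of all protein-coding genes, so the share of the whole list lay near the background. By class the counts were 11 of 11 intracellular members, 12 of 15 receptors, 4 of 7 antagonists, 2 of 4 R-spondins and 8 of 18 Wnt ligands. The ligand share was 44.4% (24.6 to 66.3), below the 61.0% of all genes in value although its interval includes it, and in replicate 1 alone 13 of 18 ligands had a promoter peak, beside 68.9% of all genes. The receptor share was 80.0% (54.8 to 93.0). The same 37 members had a replicated promoter hotspot, the authors' wider interval, against 62.1% of all genes. With hotspots required to overlap reciprocally by 50% the count was 21 of 55, beside 49.3% of all genes.

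Strength followed the same division. The promoter signals given for a gene are the strongest peak of each library, taken separately, so a pair of values can come from different sites. Median signals of the strongest promoter peaks were 120 in replicate 1 and 58 in replicate 2 for the 11 intracellular members, and 119 and 54.5 for the 12 replicated receptors. The 8 replicated ligands had medians of 68.5 and 21.5, and the 4 replicated antagonists 79 and 30. A replicated promoter region in the upper 10% of both lists was held by 8 receptors, 7 intracellular members and 1 ligand, with no antagonist or R-spondin among them. These 16 members make up 29.1% of the list, beside 38.0% of all protein-coding genes.

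**Figure D1:**
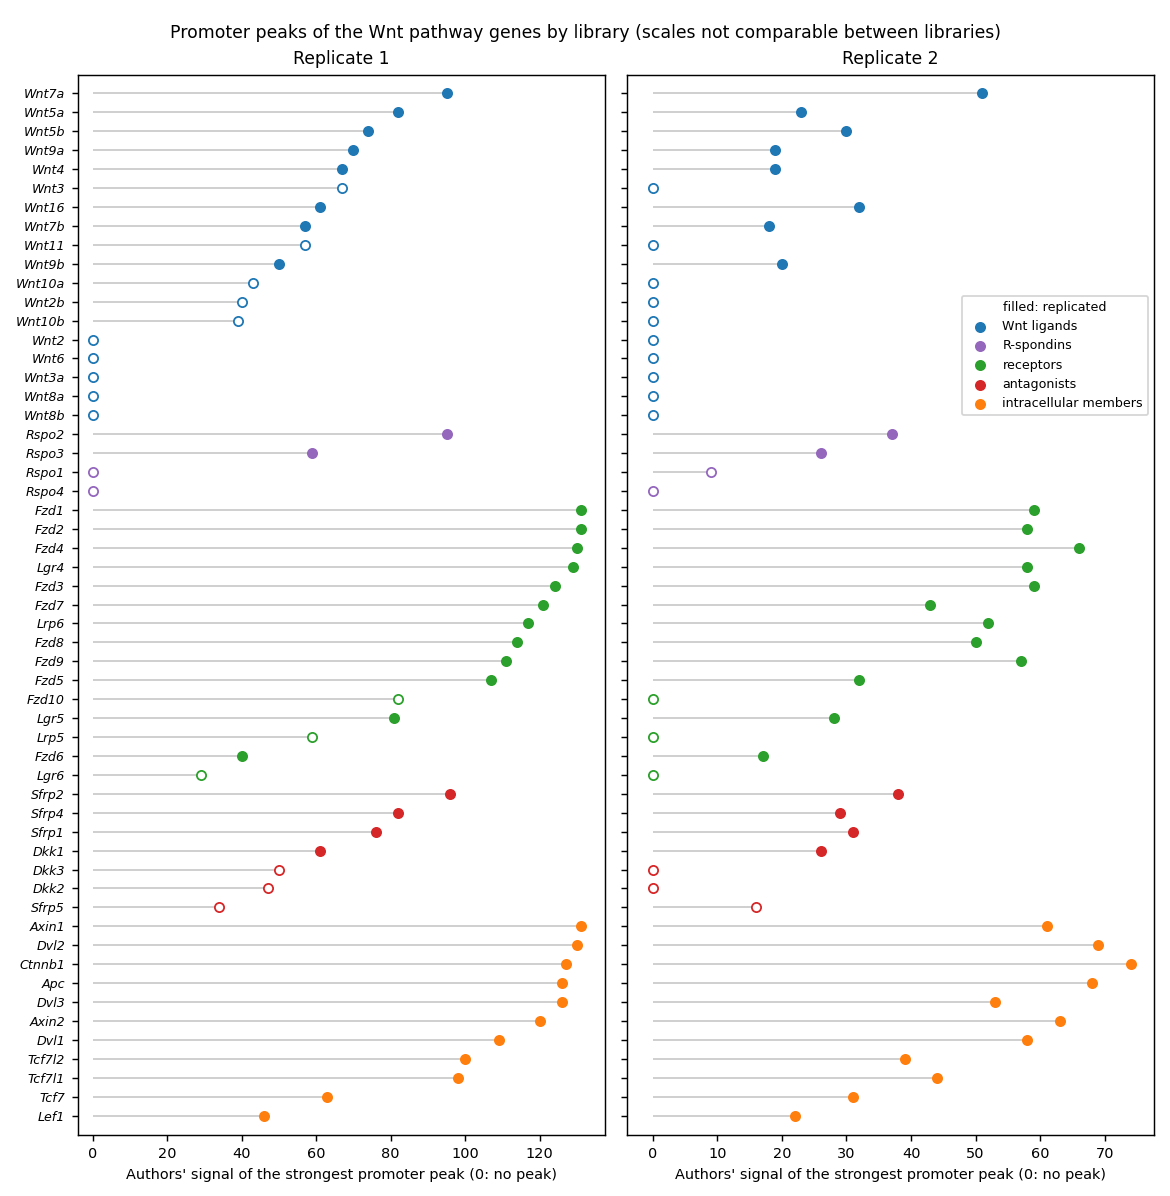
Authors' signal of the strongest peak within 500 bp of a start site of each gene, replicate 1 on the left and replicate 2 on the right (linear axes of different scale, 0 where no peak was called), with filled points for members with a replicated promoter peak. The intracellular members are all filled, whereas the ligands hold 10 open points of 18.

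Among the ligands, Wnt7a had the strongest replicated peaks within 500 bp of a start site. Wnt7a, a ligand of neurons and glia that acts on brain vessels and synapses (chromosome 6, 91363981 to 91411363, minus strand), had promoter signals of 95 in replicate 1 and 51 in replicate 2, at ranks of 91.1% and 91.8% of their lists. Its replicated region, at chr6:91411816-91411985, reached into the promoter window from upstream and also lies at a start site of the noncoding gene Gm30437. Wnt5a, the best known ligand of the non-canonical branch (chromosome 14, 28504750 to 28527448), had strongest peaks of 82 and 23. Wnt5b, its close relative, had 74 and 30. The remaining replicated ligands were lower in replicate 1, though Wnt16 was above Wnt5a and Wnt5b in replicate 2, with 70 and 19 at Wnt9a, 67 and 19 at Wnt4, 61 and 32 at Wnt16, and 50 and 20 at Wnt9b. Wnt7b had 57 and 18 in peaks that did not overlap, and its replicated regions, about another start site, had 42 and 12 and 34 and 14. A region of 110 and 55 lay 758 bp upstream of Wnt7b, outside the promoter window. It was above the promoter peaks of Wnt7a in both libraries, so the order of the ligands depends on the window.

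The other 10 ligand genes had no replicated promoter peak, and they split evenly into those with a peak of replicate 1 and those with none. A peak of replicate 1 alone was found at Wnt3 (67), Wnt11 (57), Wnt10a (43), Wnt2b (40) and Wnt10b (39). Wnt11 also had a replicated region of 108 and 53 in an intron, 774 bp from its nearest start site and so outside the window. No promoter peak of either library was found at Wnt2, Wnt3a, Wnt6, Wnt8a or Wnt8b, which belong with 30.4% of all protein-coding genes. Distances to the nearest replicated region were taken from whichever annotated start site of the gene was closest. Wnt3a, the textbook ligand of the canonical branch, had 7304 bp and Wnt8a 3868 bp. Wnt6 had 2137 bp and Wnt8b, known from patterning of the forebrain, 1135 bp. Both were measured from the inner start site of a noncoding transcript, 10.55 kb into Wnt6 and 16.85 kb into Wnt8b. The 5′ start sites of Wnt6 and Wnt8b lay farther from any replicated region. Wnt2 was the most isolated, with 56731 bp to the nearest replicated region, and Wnt2b followed with 30935 bp.

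The R-spondin genes divided evenly. Rspo2 had promoter signals of 95 and 37, and Rspo3 had 59 and 26. Rspo1 had a promoter peak in replicate 2 alone, with a signal of 9 at the 15.0% rank of that list, a state seen in 0.757% of all protein-coding genes. At Rspo4 neither library had a promoter peak, and 19449 bp separated its start site from the nearest replicated region.

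In all, 9 of 10 frizzled genes were open in both libraries, beside 61.0% of all protein-coding genes and 92.1% of the CpG-rich ones. The strongest were Fzd1 (131 and 59), Fzd2 (131 and 58), Fzd4, which also serves as the receptor of the vascular ligand norrin (130 and 66), and Fzd3, a receptor used in axon guidance (124 and 59). Fzd7 had 121 and 43, Fzd8 114 and 50, Fzd9 111 and 57 and Fzd5 107 and 32. The replicated region of Fzd5 had 107 and 26. Fzd6 stood well below the others with 40 and 17, at the 42.9% and 46.9% ranks. The exception was Fzd10, with 3 promoter peaks of up to 82 in replicate 1 and 0 in replicate 2, and with 37699 bp to the nearest replicated region.

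The co-receptors differed from each other, and so did the R-spondin receptors. Lrp6 had promoter signals of 117 and 52 in replicates 1 and 2, while Lrp5 had 59 in replicate 1 and no peak in replicate 2. Of the R-spondin receptors, Lgr4 had 129 and 58 and ranked in the upper 10% of both lists. Lgr5, a marker of stem cells in several organs, had 81 and 28, and its replicated promoter region had 76 and 28. Lgr6 had 29 in replicate 1 alone, at the 17.5% rank, the weakest promoter value in that library among the members that had one.

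Every antagonist had a promoter peak in replicate 1, but the peaks of 3 genes were not matched in replicate 2. Sfrp2 had 96 and 38, Sfrp4 82 and 29 and Sfrp1 76 and 31, all 3 encoding decoys that bind Wnt ligands. Sfrp5 had 34 and 16 in peaks that did not overlap, as in 0.843% of all protein-coding genes. Of the Dickkopf genes, Dkk1 had 61 and 26, whereas Dkk2 had 47 and the divergent family member Dkk3 had 50 in replicate 1 alone.

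All 11 intracellular members were open in both libraries, beside 61.0% of all protein-coding genes and 92.1% of the CpG-rich ones. The scaffold genes Axin1 (131 and 61) and Apc (126 and 68), the beta-catenin gene Ctnnb1 (127 and 74) and the dishevelled genes Dvl2 (130 and 69), Dvl3 (126 and 53) and Dvl1 (109 and 58) all ranked in the upper 10% of both lists. Axin2, which is induced by the pathway and restrains it, had 120 and 63. The 4 TCF/LEF genes ranked below these. Tcf7l2 had 100 at its 5′ promoter and 39 at an inner one. Tcf7l1, which acts mostly as a repressor, had 98 and 44, Tcf7 63 and 31 and Lef1 46 and 22. In replicate 1 these 4 genes all lay below the other 7, and in replicate 2 as well.

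Members open in replicate 1 alone were set beside the rest of the genome. They numbered 10 of 55, while 6.99% of all protein-coding genes were in this state. Their signals ranged from 29 to 82 with a median of 48.5, and the median over all genes in this state was 41. They comprised 5 ligands, 3 receptors (Fzd10, Lrp5 and Lgr6) and 2 antagonists (Dkk2 and Dkk3). The list of replicate 1 is the longer, and with it alone 48 of 55 members had a promoter peak, against 68.9% of all genes. With replicate 2 alone 39 of 55 had one, against 62.6%.

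CpG content was measured over the 500 bp on each side of the 5′ end of each gene, since open promoters are mostly rich in CpG. Of the members, 45 of 55 lay in the upper 5 deciles of the ratio of observed to expected CpG, and 32 of these, 71.1% (56.6 to 82.3), had a replicated promoter peak. Over all protein-coding genes in the same deciles the share was 92.1%. All 10 intracellular members in these deciles were open, 12 of 15 receptors, 6 of 13 ligands, 2 of 4 R-spondins and 2 of 3 antagonists. The receptors in these deciles include all 10 frizzled genes, of which 9 were open. Wnt2b, Wnt3a, Wnt6, Rspo1, Fzd10, Lrp5 and 7 others were thus CpG-rich without a replicated peak. Lrp5 had a ratio of 0.885, in the highest decile, in which 96.5% of genes were open. In the lower 5 deciles 5 of 10 members were open, beside 30.0% of all genes, namely Wnt7b, Wnt16, Dkk1, Sfrp4 and Ctnnb1. The 5′ end of Ctnnb1 lies 4.18 kb upstream of its strongest promoter.

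Several members have start sites over 1000 bp apart that were open to different degrees. Apc, on chromosome 18 (34220924 to 34322552), had an upstream promoter with 126 and 68 and an inner one 26.8 kb downstream with 123 and 50, and no peak at its last pair of start sites. Tcf7l2 (chromosome 19, 55741820 to 55933654) had 100 and 37 at its 5′ promoter. An inner promoter 152.7 kb downstream, where shorter transcripts begin, had 84 and 39, and the next, at 156.5 kb, had a peak of 25 in replicate 2 alone. The start site between them, at 151.5 kb, had no peak in either library.

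Wnt5b was the reverse case, with its inner promoter the more open. Its 5′ promoter had 50 in replicate 1 and no peak in replicate 2, the second had none in either, and the inner one 94.96 kb downstream had 74 and 30. Ctnnb1 had 46 and 20 at its 5′ end and 127 and 74 at the promoter 4.18 kb downstream, where 6 start sites are annotated, and a 47 in replicate 1 alone at its last start site. Lrp6 had a second replicated promoter peak of 45 and 18 at a noncoding transcript 95.7 kb into the gene and a 24 in replicate 1 alone at the next start site, and Dvl2 one of 43 and 15, 4.86 kb into the gene. At Wnt5a all 3 promoters held replicated peaks, and the strongest peaks were 82 and 23, 56 and 20, and 54 and 16 from 5′ to 3′. The 16 was not in a replicated region, and those of the third promoter had 54 and 14 and 42 and 12. Replicate 2 had 40 peaks in the gene body and 10 kb on each side of Wnt5a, with a median signal of 9.5 and a median spacing of 520 bp. Whether so close a spacing alone gives the overlaps was not tested. Lef1 had its replicated peak at the 5′ end only, and an 18 in replicate 2 alone 2.33 kb downstream. Axin2 had a 35 in replicate 1 alone at its second promoter, 2.83 kb downstream, and none at the 2 inner ones. Wnt7b had its second promoter open in peaks of the 2 libraries that did not overlap, and its innermost had none.

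At the other members of this kind only the 5′ promoter held a replicated peak. These were Wnt7a, Rspo3, Fzd3, Fzd6, Lgr4, Lgr5, Dvl1, Axin1 and Tcf7l1, and at each of them the inner start sites had no peak in either library.

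Open regions away from promoters were then counted in the domain of each gene, which is its body extended by 10 kb to either side. A region was called distal when its midpoint was over 500 bp from the start site of any gene. The members' domains held 255 replicated regions, of which 160 were distal, against 70.2% of all replicated regions in the genome, and 78 of the distal regions lay in introns of the member, 25 in its exons, 26 upstream and 31 downstream. At least 1 distal region was found for 45 of 55 members, beside 63.3% of all protein-coding genes. The median density was 4.23 distal regions per 100 kb of domain, and 2.26 over all protein-coding genes. The ligands had the highest class median, 8.02 per 100 kb, followed by antagonists (6.69), intracellular members (3.95), receptors (3.48) and R-spondins (2.81). The ligands also had the lowest share of promoters open in both libraries, but with replicate 1 alone the lowest was that of the R-spondins, 2 of 4 beside 13 of 18 ligands. Short genes have domains made mostly of flank, and gene length was not allowed for.

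**Figure D2:**
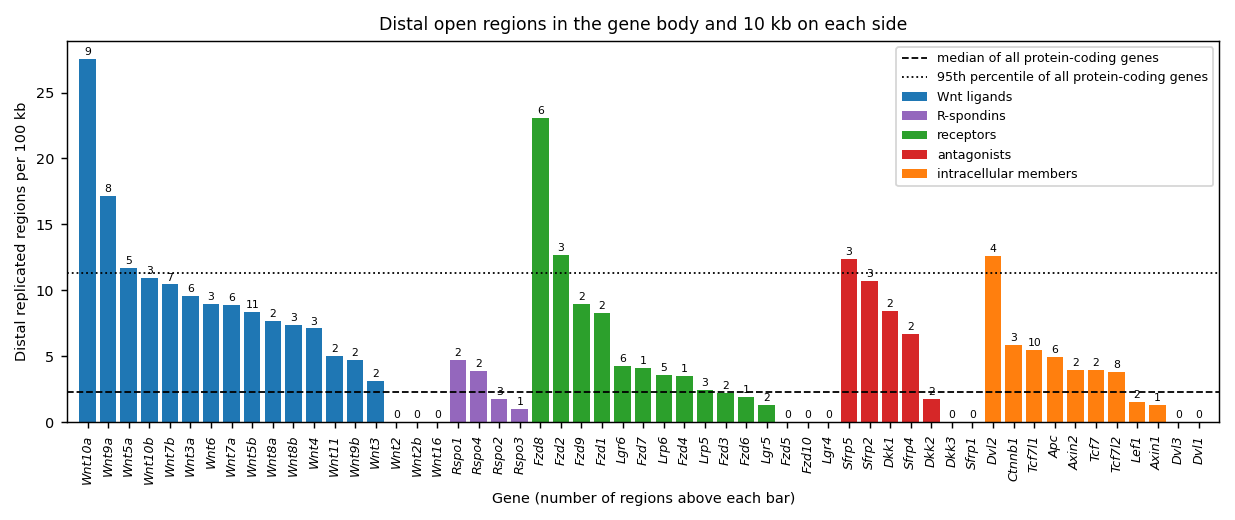
Distal replicated regions per 100 kb of domain for each gene, with the number of regions above the bar, the dashed line at the median of all protein-coding genes (2.26) and the dotted line at their 95th percentile (11.3). The bars of 7 genes pass the dotted line, led by Wnt10a at 27.6 and Fzd8 at 23.1.

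The density of 7 members exceeded the 95th percentile of all genes, 11.3 per 100 kb. They were Wnt10a, with 9 distal regions and 27.6 per 100 kb, Fzd8, with 6 and 23.1, Wnt9a, with 8 and 17.2, Fzd2 (12.7), Dvl2 (12.6), Sfrp5 (12.4) and Wnt5a (11.7). Many of these regions lay just beyond the promoter window. Those of Fzd2 were 645, 735 and 1415 bp from its start site, and those of Fzd8 532 to 6298 bp. The domain of Wnt5a is the one with 40 closely spaced peaks of replicate 2. Most regions of Dvl2 lay inside the neighbouring gene Dlg4, and most of Sfrp5 inside Zfyve27, so a high density does not assign the regions to the member. Wnt10a (chromosome 1, 74791516 to 74804179) and Fzd8 (chromosome 18, 9212163 to 9218136) are opposites at the promoter. Fzd8 had 114 and 50 there and Wnt10a a single peak of 43 in replicate 1.

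Wnt5b and Wnt10a had the most distal regions among the ligands. Of the 11 of Wnt5b (chromosome 6, 119432531 to 119544347) 10 lay in introns and 1, with 76 and 29, downstream. Their signals ran from 44 to 94 in replicate 1 and from 13 to 44 in replicate 2, and the highest by rank had 87 and 44, 5105 bp beyond the inner start site. Of the 11, 2 lay within Fbxl14, a gene inside its intron, whose promoter held 3 more replicated regions (117 and 53, 92 and 44, 66 and 24). At Wnt10a the strongest region, 14928 bp beyond its nearest start site and downstream of the gene, had 104 and 60. Others had 87 and 49 and 70 and 27 in exons, 105 and 23 in an intron, and 80 and 39, 54 and 19 and 52 and 11 downstream.

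Neighbouring ligand genes shared regions. Wnt6 and Wnt10a lie head to tail on chromosome 1 and share a region of 58 and 30 in an exon of Wnt6 and one of 74 and 46 between the genes. Wnt3a and Wnt9a point away from each other on chromosome 11 and share regions of 98 and 45 and of 56 and 14 between them. Neither Wnt6 nor Wnt3a had a promoter peak in either library. Wnt9a had a further upstream region of 111 and 55, 4027 bp before its start site.

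Among the receptors Fzd8 and Lgr6 had 6 distal regions each. In Fzd8 4 of the 6 lay in an exon, with 102 and 42, 93 and 40, 112 and 36, and 29 and 15, and the others had 34 and 14 upstream and 91 and 34 downstream. In Lgr6 the strongest were 86 and 43 in an exon and 94 and 40 in an intron, 117495 and 115695 bp from the 5′ end, and 69 and 34 lay 865 bp upstream of its first start site. The others had 50 and 14 in an exon, 39 and 14 in an intron and 64 and 21 upstream. Distal regions in exons were also found at Fzd1 (71 and 20, 62 and 24), Fzd2 (60 and 17, 45 and 20) and Fzd7 (115 and 44).

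Antagonists and R-spondins had a median of 2 distal regions per gene, as did the receptors and the intracellular members. Sfrp2 and Sfrp5 each had 3. The strongest of Sfrp2 had 115 and 53, 1880 bp upstream, above its promoter in both libraries, and the others had 40 and 28 upstream and 61 and 25 in an intron. Those of Sfrp5 had 61 and 36, 55 and 11 and 47 and 18, all downstream. Rspo2 had 3 in introns, with 54 and 24, 52 and 12 and 67 and 26. Rspo4 had 55 and 27 in an intron and 69 and 42 downstream, and a region of 56 and 17 at the promoter of the noncoding Rspo4os.

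The TCF/LEF genes held 22 of the 38 distal regions of the intracellular class. Their median density was 3.86 per 100 kb, beside 3.95 for the class, and the domains of Tcf7l2 and Tcf7l1 were long (211.8 and 182.9 kb). Tcf7l1 (chromosome 6, 72626378 to 72789254) had 10, all in introns. Neighbouring regions at 77793, 77533 and 77223 bp from the 5′ end had 75 and 29, 103 and 35 and 75 and 23. The other 7 ran from 73 to 94 in replicate 1 and from 15 to 35 in replicate 2. Tcf7l2 had 8, of which 4 lay in introns (68 and 31, 52 and 22, 93 and 24, 68 and 39), 2 in exons (46 and 21, 56 and 26) and 2 downstream (35 and 12, 66 and 16). Dvl1 and Dvl3 had no distal region, although their promoters were among the strongest.

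**Figure D3:**
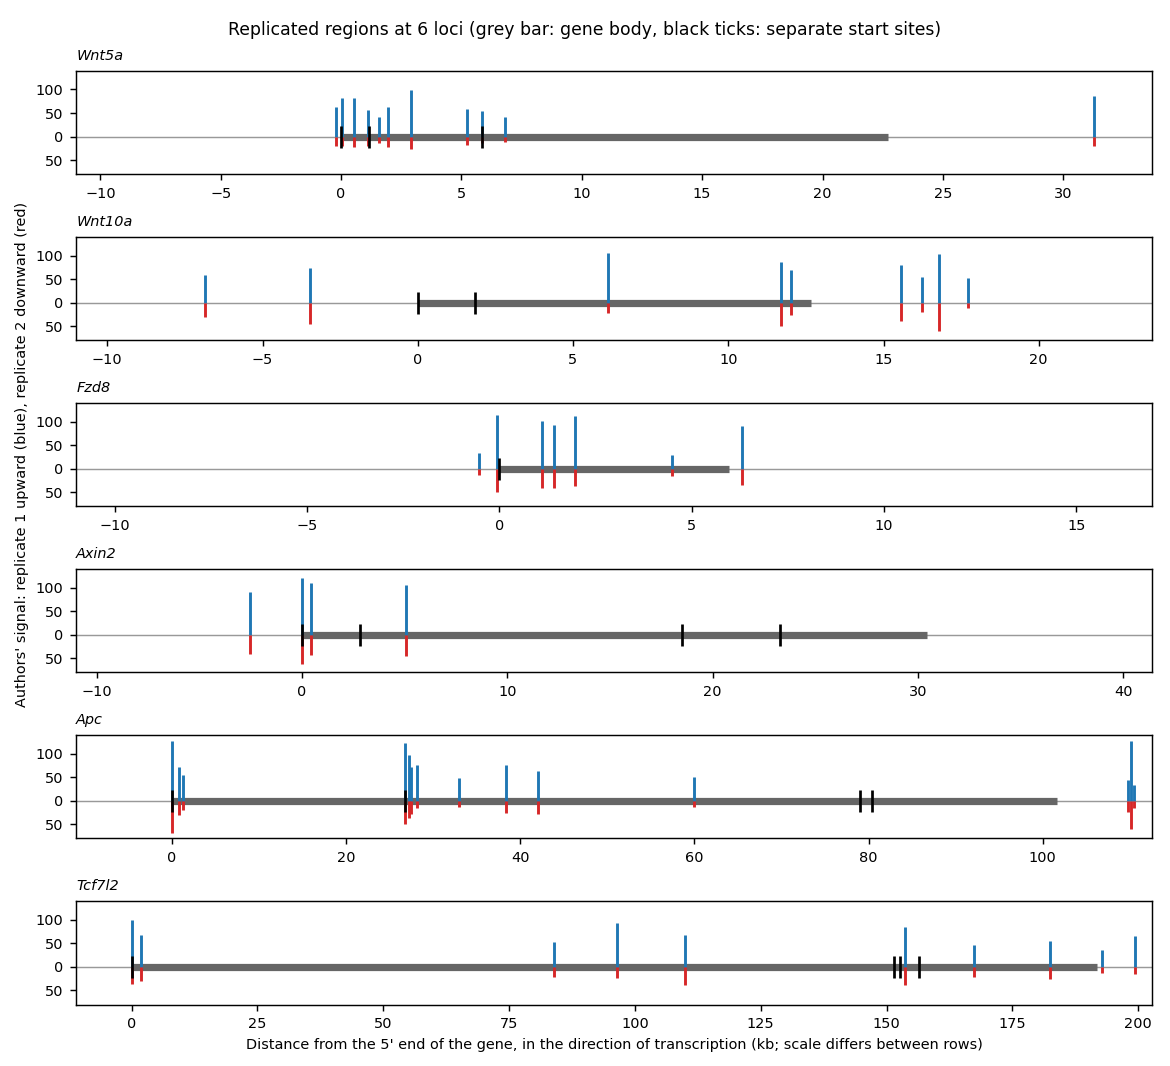
Replicated regions at Wnt5a, Wnt10a, Fzd8, Axin2, Apc and Tcf7l2, by distance from the 5′ end of the gene in kb (horizontal), with the authors' signal of replicate 1 drawn upward in blue and of replicate 2 downward in red on linear axes. Wnt10a has 9 regions and none at its 2 start sites, and Apc and Tcf7l2 have strong regions at their 5′ end and again at inner promoters, whose first start sites lie 26.8 and 152.7 kb downstream.

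In all, 10 members had no distal replicated region in their domain, namely Wnt2, Wnt2b, Wnt16, Fzd5, Fzd10, Lgr4, Dkk3, Sfrp1, Dvl1 and Dvl3. Among them Wnt2, Wnt2b, Fzd10 and Dkk3, had no replicated region of any kind, and replicate 2 had 0 peaks in each of these domains while replicate 1 had 4, 3, 7 and 19.

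The signals of the 2 libraries were then set against each other region by region. Across the 255 regions Spearman's rho was 0.784, across the 160 distal regions 0.665 and across the 95 others 0.913. Regions of a library share its depth and its peak calling and are not independent, so these are descriptions. The median distal region had signals of 70 and 23, and the median over all 52518 distal replicated regions was 67 and 22.

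**Figure D4:**
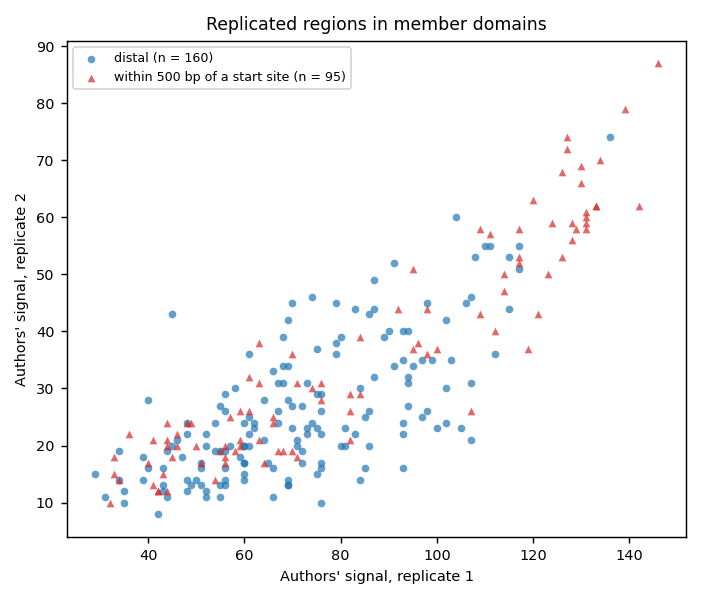
Authors' signal in replicate 1 (horizontal) and replicate 2 (vertical, both linear) of the 255 replicated regions in the members' domains, with circles for the 160 distal regions and triangles for the 95 regions within 500 bp of a start site. The triangles spread along a single rising band (Spearman's rho 0.913) and the circles more widely (0.665).

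The words for TCF/LEF factors were searched in windows of 150 bp centred on each region. They were present in 6 of 160 distal regions, 3.75% (95% Wilson interval 1.73 to 7.94), beside 5.39% of all 52518 distal replicated regions. Among the 95 regions within 500 bp of a start site they were present in 7, 7.37% (3.62 to 14.4), beside 2.3% of the 22315 such regions in the genome. Of these 7, 2 lay at Axin2 and 1 each at Tcf7, Dkk1, Lrp6 and the inner promoter of Apc, and 1 at the noncoding gene Gm42449 inside Lef1. The interval treats regions as independent, which the 2 neighbouring ones at Axin2 are not shown to be. This share is 1 of several motif shares counted, and the alternative settings were tried for the distal share only. The Axin2 regions had 120 and 63 and 109 and 43, and the word of the first lies in its transcribed part and is not printed above. The Tcf7 region had 63 and 31, the Dkk1 region 44 and 12, and the Gm42449 region, with a word on each strand, 63 and 38.

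The 6 distal regions with a word lay at Wnt4, Wnt5b, Wnt10a, Ctnnb1, Tcf7 and Lef1. The Wnt4 region, 31132 bp from the 5′ end and downstream of the gene, had 73 and 31, and the Wnt10a intron 105 and 23. The Lef1 region, 4380 bp upstream, had 70 and 23, and the Tcf7 region, 1457 bp upstream, had 69 and 13. Wnt5b had 55 and 13 with a word on each strand of the region, though its CTTTGAA lies outside the 150 bp window, and Ctnnb1 had 69 and 14. A word in an open region is a match of letters and does not show that a factor was bound.

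Other motifs were counted in the same windows. The GC box GGGCGG was present in 13.8% of the distal regions (9.26 to 19.9), beside 6.97% of all, and in 38.9% of the others, beside 42.7%. Some distal regions with a GC box lay just beyond the promoter window, as at Lgr6 (555 bp from a start site), Wnt10b (651 bp) and Wnt11 (774 bp). Others lay far from any start site, as at Wnt3a (26781 bp). Distance from start sites was not allowed for. The E-box words CAGCTG and CATCTG were present in 26.2% of the distal regions, beside 27.1% of all, and in 8.42% of the others, beside 15.6%. For the distal regions the CTCF motif stood at 16.2% beside 16.0%, the SOX word ACAATG at 7.50% beside 7.65%, the homeodomain word TAATTA in 8 of 160 beside 3.98% and the OTX word TAATCC at 3.75% beside 4.55%. The NFI motif was in 0 of 160, which allows a share of up to 1.88%, beside 0.131% of all. For the 95 others the shares were 4.21% beside 3.69% for CTCF, 5.26% beside 3.59% for SOX and 2.11% beside 2.34% for OTX. The homeodomain word and the NFI motif were in 0 of 95, which allows up to 3.16%, beside 1.04% and 0.0224%.

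A second list held 51 other genes of the pathway. A replicated promoter peak was found at 43 of them, 84.3% (72.0 to 91.8), beside the 61.0% of all protein-coding genes and the 67.3% of the members. Of the 51, 39 lay in the upper 5 CpG deciles. There 36 of the 39 were open, beside 92.1% of all protein-coding genes in these deciles. The other 7 open genes lay in the lower 5 deciles. The highest 5 by the lower of their percentile ranks in the 2 lists were the kinase gene Gsk3b of the destruction complex (147 and 84), the tankyrase gene Tnks, whose product marks Axin for degradation (141 and 82), the corepressor genes Tle4 (140 and 84) and Tle1 (139 and 79) and the formin gene Daam1 of the planar polarity branch (139 and 84). The 8 without one were Ror2 (73), Kremen2 (46), Sostdc1 (45), Vangl1 (76), Celsr1 (82) and Daam2 (72), with these signals in replicate 1 alone, Tle2 (16 in replicate 2 alone) and Sost, with no peak. Wls and Porcn, which are needed to secrete Wnt ligands, were open at 93 and 39 and at 97 and 39. The feedback inhibitors Znrf3 (123 and 49), Rnf43 (86 and 46), Nkd1 (118 and 37) and Notum (49 and 14), and the target gene Sp5 (80 and 31), were open as well.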

How the data were processed

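The authors called peaks and hotspots on the filtered alignment of each replicate separately (mm10), per the text deposited with each list. No source used here names the caller, its version or its limits. The signal of a peak is as deposited by the authors, a whole number not scaled between libraries, and a hotspot has a deposited −log10 q value with a ceiling of 100. Intervals off chromosomes 1 to 19, X and Y (215 and 221 peaks) and repeats of a position (22 and 24) were set aside. Peaks of both libraries that overlapped or touched were merged, and overlap meant at least 1 bp. Start sites and gene bodies came from GENCODE M21 and sequence from RefSeq, both of the same assembly. Percentile ranks were taken within each list. Motifs were counted in 150 bp windows. Shares carry 95% Wilson intervals. A share of 0 is given with the limit of 3 counts of the total. The functions were tested on simulated intervals with known answers. Python 3.11.15, pandas 2.3.3, numpy 2.4.6 and scipy 1.17.1 were used.

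The members and lists were chosen with earlier results of these data known. All members are named; distal regions are described for the 2 members per class with the most of them, separate start sites where some were open and some not, and sequences for the strongest distal region with a TCF/LEF word per class, the Axin2 promoter and the highest and lowest promoter regions, of which the sequence of the lowest is not reported here. Alternatives were each library alone, stronger peaks, equal list lengths, reciprocal overlap, other windows and domains, and hotspots. No test between groups was possible with 1 group.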

Additional observations from a re-analysis of the deposited data

How the results depend on the processing

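Of the alternatives tried, 83 of 90 left a count within 1.5 times its value or a motif share inside its interval. Counts such as 37 of 55 members, 12 of 15 receptors and 11 of 11 intracellular members could not rise by more than that factor. The tally is thus partly set by the rule and is no measure of how stable they are. With each library alone the ligand promoters counted 8 to 13 (8 with both), the antagonist promoters 5 to 7 (4 with both) and the distal regions in the members' domains 256 to 485 (160 with both), the upper values from replicate 1. Those distal regions numbered 103 in gene bodies alone and 293 with 50 kb on each side. With reciprocal overlap of 50%, replicated promoter hotspots fell to 21 of 55 members, beside 49.3% of all protein-coding genes; the cause was not tested. The intracellular count was 10 or 11 of 11 and the receptor count 11 to 15 of 15 throughout. No paired analysis was possible because the series holds 1 group. Read depth is unknown, so a promoter without a peak in replicate 2 is not shown to be closed.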

Other observations

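Peaks of the 2 libraries were also counted without any matching in each member's domain. Replicate 1 had 659 and replicate 2 had 408, and 8 of 55 members had more in replicate 2. At Wnt5a replicate 2 had 40 peaks and replicate 1 had 13. The 40 had signals of 3 to 26 with a median of 9.5, their midpoints stood a median of 520 bp apart, 21 of them fell in the first 10 kb of the gene, and 11 overlapped a replicate 1 peak. The 13 peaks of replicate 1 had signals of 34 to 98, and 11 of them overlapped a replicate 2 peak. At Lef1 replicate 2 had 17 peaks against 10. The opposite was seen at Axin2 (28 in replicate 1 and 6 in replicate 2), Lgr5 (23 and 3) and Tcf7l1 (41 and 16).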
